A study of Arabidopsis thaliana with 12 samples.

Results

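The last sampled point of the day, 20 h, was set against the first, 0 h, in leaves of Arabidopsis thaliana. The comparison used 4 of the 12 arrays of the study: the 2 titled dark 20 h and the 2 titled light 0 h. On a circle of 24 h these 2 time points are neighbours, 4 h apart, as are the other 5 pairs of consecutive points (0 and 4, 4 and 8, 8 and 12, 12 and 16, 16 and 20 h). They do not share a slide, however. Both 0 h arrays lay on slide 1 with the 4 h arrays, and both 20 h arrays lay on slide 2 with those of 8, 12 and 16 h, so slide and time cannot be told apart in any difference given here.

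All plants were wild-type Col-0, the reference accession, with no transgene or treatment named, and leaves were taken at 30 days. Growth was at 22 °C and 65% humidity under 145 µmol per m2 per s, in short days with 8 h of light and 16 h of darkness. Continuous light is named in the title of the series but not in the sample titles or the description of growth, so light and dark serve here only as names of the arrays. The labels do not say whether the 2 replicates of a time point were separate plants, and the p-values measure the spread between arrays, which may be technical. In whole leaves, fewer cells that carry a transcript and less of it in each cell cannot be told apart. None of the leaf, root, flower or seed marker genes chosen to check the tissue had a probe, so the label leaf could not be checked with them.

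The circadian clock of plants is a set of interlocked transcriptional repressors. The MYB factors LHY and CCA1 peak around dawn and repress evening genes. The pseudo-response regulators PRR9, PRR7, PRR5 and TOC1 follow one another through the day and the evening and repress LHY and CCA1 in turn. The clock gates many outputs, among them the growth-promoting phytochrome-interacting factors (PIFs), cold-response genes and some non-coding RNAs. Late in the night this repression lifts and the morning genes begin to rise again.

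A level is the log2 of a transcript's processed signal over the array's 75th percentile, where the percentile is that of the 2876 probes detected (well above background) on every one of the 12 arrays. Levels of different transcripts come from different probes and are not set against each other. Fewer of the 15013 probes were detected at 20 h, 26.6% and 26.9%, than at 0 h, 35.0% and 41.0%. The 2 replicates correlated across transcripts with r of 0.973 at 0 h and 0.967 at 20 h. Of 5154 transcript names, 3302 were tested: 2719 named by a TU code, 462 by a locus code and 121 microRNA precursors.

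Of the 3302 transcripts, 136 (4.12%) differed between 20 h and 0 h at an adjusted p of 0.05 (limma over all 12 arrays, Benjamini-Hochberg). At 20 h, 34 of them (1.03%) were higher and 102 (3.09%) were lower. That split was 151 higher and 122 lower under normexp with quantile normalization, and 11 and 1133 on a scale set by spiked-in control RNA. The clock gene LHY and the cold-response gene LTI78 were 15.8-fold and 14.1-fold lower at 20 h. The clock repressor PRR7 and the growth-promoting PIF4 were 5.75-fold and 5.15-fold higher. Every microRNA precursor that passed, 18 of 121, was lower at 20 h. The median difference of all transcripts tested was -0.19 (log2, 20 h minus 0 h), so that differences relative to that middle lie a little higher than those printed, at -3.79 for LHY and 2.71 for PRR7. The 2 arrays of 20 h lay on one side of the 2 of 0 h for 1961 transcripts (59.4%).

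**Figure D1:**
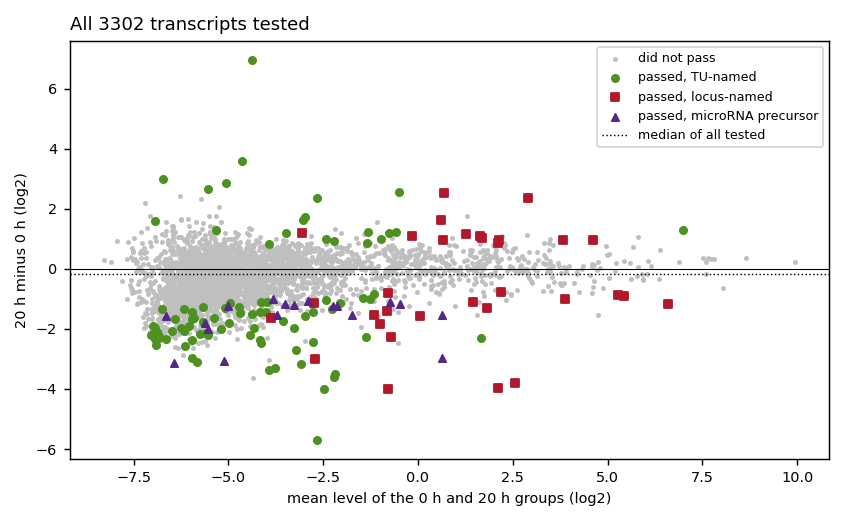
Difference between 20 h and 0 h (log2, vertical axis) against the mean level of both groups (log2, horizontal axis) for each of the 3302 transcripts tested. Coloured points are the 136 that passed, by kind of name, and the dotted line is the median of -0.19. Most coloured points lie below 0, and the triangles of the 18 microRNA precursors all do.

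The array had probes for 8 of 23 clock genes listed, and all 8 were tested. PRR7, PRR3 and CHE were higher at 20 h, LHY and CCA1 were lower, and PRR9, PRR5 and TOC1 did not pass. Among all transcripts 1.03% were higher and 3.09% lower. The median difference over the 8 was 0.56, beside -0.19 for all transcripts, and it turned to -0.26 when the arrays were scaled by spiked-in control RNA. In all 8 the arrays of 20 h lay apart from those of 0 h, as they did in 59.4% of all transcripts. The share was 74.5% of locus-named transcripts and 79.1% of those listed as protein-coding.

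LHY (AT1G01060), a MYB factor of the morning loop, stood at 4.2 and 3.98 on the 0 h arrays and at 0.22 and 0.0044 on the 20 h arrays. The 0 h arrays were far higher, with no overlap. The difference was -3.98 ± 0.19 (SE, n = 2 and 2 arrays), which is 15.8-fold lower at 20 h, with an adjusted p of 4.2e-05 (limma). Over the circle LHY had its lowest mean at 20 h, 0.11, had reached 4.09 at 0 h and 8.01 by 4 h, and was highest at 8 h, at 8.21. On these arrays LHY thus peaked at 8 h and not at 0 h, unlike the dawn peak named above. CCA1 was also highest at 8 h, PRR9 and PRR7 at 12 h, PRR5, PRR3 and TOC1 at 16 h, and CHE at 20 h. The reason for these peak times was not tested. The 3 probes of LHY gave differences between -3.98 and -3.68.

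CCA1 (AT2G46830), the partner of LHY, was at 0.74 and 0.95 on the 0 h arrays and at -0.76 and -0.70 on the 20 h arrays. Both 0 h arrays were higher, and the groups did not overlap. CCA1 was 2.97-fold lower at 20 h (difference -1.57 ± 0.21, SE, n = 2 and 2 arrays, limma adjusted p = 0.00733). Its mean reached 6.48 at 4 h and 6.55 at 8 h, so that the step from 20 h to 0 h was a small part of its climb, whereas LHY at 0 h lay near the middle of its range.

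PRR7 (AT5G02810), a repressor of LHY and CCA1, moved the other way. It was at -0.63 and -0.51 on the 0 h arrays and at 1.75 and 2.15 on the 20 h arrays. The 20 h arrays were both higher, by 2.52 ± 0.28 on the log2 scale (SE, n = 2 and 2 arrays, 5.75-fold, limma adjusted p = 0.00351). The mean of PRR7 was 6.19 at 12 h, 5.57 at 16 h, 1.95 at 20 h and lowest, -0.57, at 0 h, and it stood at 1.14 at 4 h.

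PRR3 (AT5G60100), known to bind and stabilise TOC1, was at -0.30 and -0.08 on the 0 h arrays and at 1.29 and 1.55 on the 20 h arrays. The 20 h arrays were again both higher, by 1.62 ± 0.25 (SE, n = 2 and 2 arrays, 3.07-fold, limma adjusted p = 0.0127). The highest mean of PRR3 was 3.37 at 16 h, and the lowest was -2.14 at 8 h, so 20 h and 0 h both lay between its peak and its trough.

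CHE (AT5G08330), a TCP factor known to repress CCA1 and entered as TCP11 in the gene table, was at 3.29 and 3.39 on the 0 h arrays and at 4.28 and 4.30 on the 20 h arrays. The groups did not overlap, and the difference was 0.95 ± 0.20 (SE, n = 2 and 2 arrays, 1.93-fold, limma adjusted p = 0.0458). The means of CHE on slide 2, from 4.05 to 4.29 at 8 to 20 h, were all above those on slide 1, 3.34 at 0 h and 3.39 at 4 h.

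The 3 clock genes that did not pass had smaller differences. PRR9 was at -2.82 and -2.88 on the 0 h arrays and -2.31 and -2.16 on the 20 h arrays, a difference of 0.61 ± 0.18 (SE, limma adjusted p = 0.100). TOC1 was at 4.86 and 4.71 on the 0 h arrays and 5.27 and 5.30 on the 20 h arrays, a difference of 0.50 ± 0.17 (limma adjusted p = 0.156). PRR5 was at 2.65 and 2.63 on the 0 h arrays and 1.92 and 1.65 on the 20 h arrays, a difference of -0.85 ± 0.20 (limma adjusted p = 0.0595). In each of these genes the arrays of the 2 time points were apart, but the difference did not pass after adjustment over all transcripts. These calls depended on the setting: normexp with quantile normalization, limma with trend and robust settings, and the filter for detection on all 4 arrays each called 5 of the 8 clock genes higher and 3 lower. Under normexp the adjusted p of PRR9, TOC1 and PRR5 was 0.0050, 0.0255 and 0.000694 (limma). Other settings called fewer. With the percentile of all probes 1 clock gene was higher and 1 lower, and CCA1, PRR3 and CHE did not pass (limma adjusted p = 0.300, 0.205 and 0.456). The 4 arrays of 0 h and 20 h alone gave 0 higher and 1 lower. On the spiked-in scale, where 1 clock gene was higher and 3 were lower, the differences of PRR9 and TOC1 turned to -0.21 and -0.32.

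**Figure D2:**
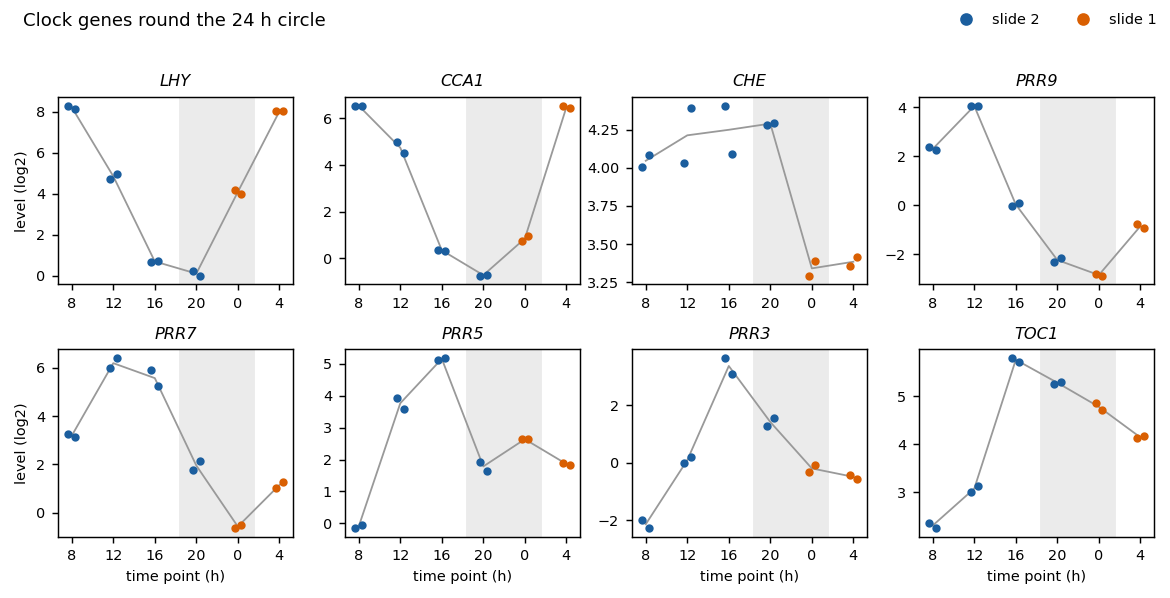
Level (log2, vertical axes, each gene on its own scale) of the 8 clock genes at the 6 time points (h), drawn so that 20 h and 0 h stand side by side in the grey band. Points are single arrays, coloured by slide, and lines join the means of 2. LHY and CCA1 climb inside the band from 0.11 to 4.09 and from -0.73 to 0.84, PRR7 drops from 1.95 to -0.57, and CHE steps down between the slides.

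Light signalling genes were next. Plants read light through phytochromes, which in light remove the PIF proteins, and through the E3 ligase COP1, which in darkness removes growth regulators such as HY5 and HFR1. Of 15 genes listed, 10 were on the array and tested. PIF4 and PIF3 were higher at 20 h, HY5 was lower, and 7 did not pass, beside 1.03% higher and 3.09% lower among all transcripts. The median difference over the 10 was -0.0068, which ran from -0.83 on the spiked-in scale to 0.17 with the percentile of all probes. The counts moved too, to 3 higher and 3 lower under normexp with quantile normalization and with trend and robust settings, 1 higher and 6 lower on the spiked-in scale, and 1 higher and 0 lower with the percentile of all probes.

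PIF4 (AT2G43010), a bHLH factor that drives elongation growth, was at 1.74 and 1.72 on the 0 h arrays and at 3.93 and 4.25 on the 20 h arrays. Both 20 h arrays were higher, by 2.36 ± 0.21 (SE, n = 2 and 2 arrays, 5.15-fold, limma adjusted p = 0.00147). The mean of PIF4 was 6.07 at 12 h and 6.11 at 16 h, 4.09 at 20 h and lowest, 1.73, at 0 h. Every slide 2 array was above every slide 1 array for PIF4, as for PRR7.

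PIF3 (AT1G09530), a PIF first known from seedling greening, was at 4.22 and 4.04 on the 0 h arrays and at 5.07 and 5.13 on the 20 h arrays. The groups did not overlap, with a difference of 0.97 ± 0.18 (SE, n = 2 and 2 arrays, 1.96-fold, limma adjusted p = 0.0268). For PIF3 the mean of 5.10 at 20 h was the highest of the 6 time points and 3.48 at 16 h the lowest.

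HY5 (AT5G11260), a bZIP factor that promotes development in light, was at 4.26 and 4.48 on the 0 h arrays and at 3.36 and 3.38 on the 20 h arrays. Both 20 h arrays were lower, and the difference was -1.0 ± 0.18 (SE, n = 2 and 2 arrays, 2.00-fold, limma adjusted p = 0.0230). Its mean was 3.37 at 20 h, the lowest of the 6 time points, and all slide 2 arrays lay below all slide 1 arrays.

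The other PIFs differed little. PIF5 was at 3.64 and 4.00 on the 0 h arrays and 3.79 and 3.95 on the 20 h arrays, and PIF1 at 1.99 and 2.12 against 1.98 and 2.01. The groups overlapped in both, with differences of 0.05 ± 0.21 and -0.06 ± 0.18. The phytochrome genes lay on opposite sides of 0, at 0.72 ± 0.18 for PHYA (limma adjusted p = 0.0775) and -0.86 ± 0.20 for PHYB (limma adjusted p = 0.0602), neither past the threshold, though both passed under normexp with quantile normalization (limma adjusted p = 0.00111 and 0.000451). PHYA stood at 5.28 and 5.32 on the 0 h arrays against 6.04 and 6.00 on the 20 h arrays, and PHYB at 2.87 and 2.88 against 1.91 and 2.12. On the spiked-in scale PHYA turned to -0.11. HFR1 and COP1 had differences of -0.52 and -0.44, and FHY1, which carries PHYA into the nucleus, had 0.38, which turned to -0.44 on the spiked-in scale. None of these 3 passed.

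**Figure D3:**
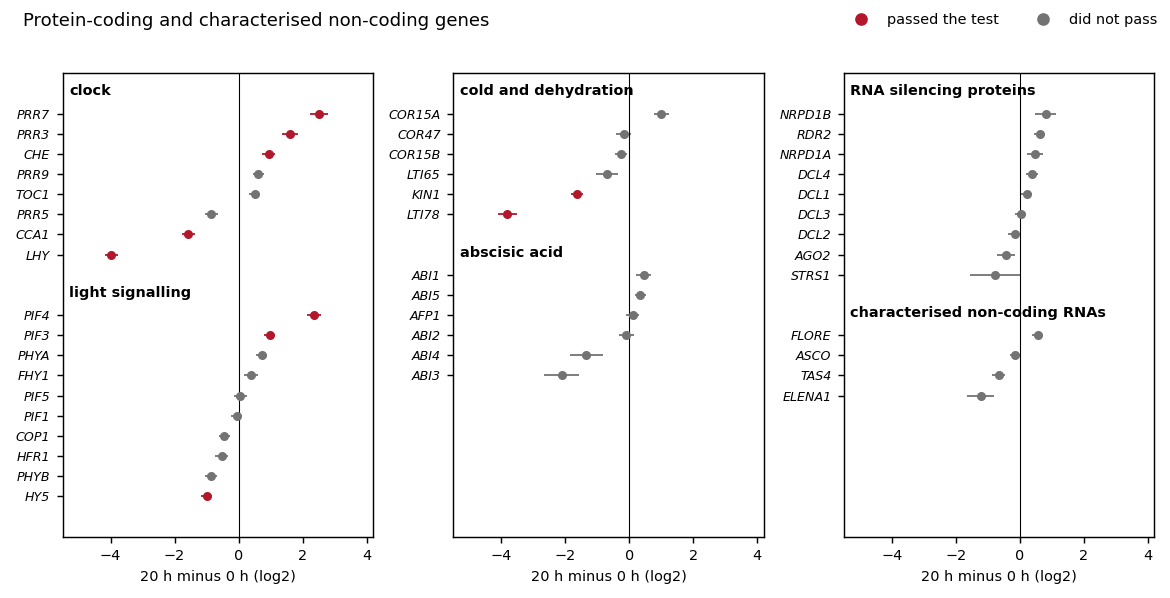
Difference between 20 h and 0 h (log2, horizontal axes, points with standard errors, 2 arrays a group) for the 43 tested genes of 6 lists. Red points passed the test. LHY at -3.98 and LTI78 at -3.82 are the farthest to the left, and PRR7 at 2.52 and PIF4 at 2.36 the farthest to the right.

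Cold and dehydration genes encode protective proteins that follow the CBF factors, which the clock gates. Of 11 listed, 6 were on the array and tested. LTI78 and KIN1 were lower at 20 h, none was higher and 4 did not pass (limma). Among all transcripts 3.09% were lower and 1.03% higher. At an unadjusted p under 0.05, 1 of the 6 was higher and 2 were lower, beside 677 of all 3302 in either direction. The median difference of the 6 was -0.48, and it lay below 0 on every scale tried. COR15A was called higher under normexp with quantile normalization, and 1 gene was called higher with array weights, with trend and robust settings and with detection required on the 4 arrays or on both arrays of either time point. On the spiked-in scale 0 were higher and 5 lower.

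LTI78 (AT5G52310), also called RD29A, was at 4.51 and 4.43 on the 0 h arrays and at 0.51 and 0.79 on the 20 h arrays. The 0 h arrays were far above the 20 h arrays, 14.1-fold (difference -3.82 ± 0.29, SE, n = 2 and 2 arrays, limma adjusted p = 0.000642). Its mean was also high at 16 h, 5.87, so the low value at 20 h lay between high values on either side of it. Its other probes gave differences of -2.03 or below.

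KIN1 (AT5G15960), a small hydrophilic cold-response protein, was at -3.00 and -3.14 on the 0 h arrays and at -4.62 and -4.77 on the 20 h arrays. The groups did not overlap, and the difference was -1.63 ± 0.19 (SE, n = 2 and 2 arrays, 3.09-fold, limma adjusted p = 0.00431). The course of KIN1 had the same dip, from -1.80 at 16 h to -4.70 at 20 h. Its probes did not all follow, with differences from -1.63 to 0.97, and its near copy KIN2 lies next to it, so this value is uncertain.

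COR15A, a chloroplast protein that protects membranes in the cold, pointed upward instead. It was at 2.90 and 3.04 on the 0 h arrays and at 4.02 and 3.92 on the 20 h arrays, a difference of 1.0 ± 0.24 that did not pass (limma adjusted p = 0.0746). Its close relative COR15B was at 5.97 and 5.86 against 5.63 and 5.70, the dehydrin gene COR47 at 7.69 and 7.70 against 7.57 and 7.46, and LTI65 at 1.87 and 1.64 against 1.16 and 0.95. Their differences of -0.25, -0.18 and -0.70 did not pass. Those of COR15B and COR47 turned to 0.08 under normexp with quantile normalization and to 0.0012 under the percentile of all probes.

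No abscisic acid gene passed, of 6 listed and tested (limma), and the median difference of 0.0094 turned to -0.81 on the spiked-in scale. At an unadjusted p under 0.05, 2 were lower and 0 higher, beside 677 of all 3302 transcripts in either direction. Limma with array weights called 2 of the 6 lower, and limma with trend and robust settings called 1. Normexp with quantile normalization called 1 higher, and the spiked-in scale 4 lower. The largest difference was that of ABI3, a B3-domain factor known from seeds, at -2.12 ± 0.54 (SE, n = 2 and 2 arrays, limma adjusted p = 0.0747). ABI3 was at -4.15 and -4.61 on the 0 h arrays and at -7.35 and -5.63 on the 20 h arrays, neither well above background. Set against the lowest detected signal, ABI3 was 2.66-fold lower at 20 h, which is no firm minimum for a difference that did not pass. With 1 array left out its difference ran from -2.98 to -1.26, and under normexp with quantile normalization it was -0.18. ABI4, an AP2 factor, was likewise not well above background on either 20 h array. Set against the lowest detected signal it was 1.42-fold lower, and it did not pass (limma adjusted p = 0.195). Under normexp with quantile normalization its difference was -0.10. The phosphatase genes ABI1 and ABI2, the bZIP factor ABI5 and its partner AFP1 had differences from -0.09 to 0.45, and those of ABI1, ABI5 and AFP1 turned to between -0.71 and -0.37 on the spiked-in scale.

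Of 9 RNA silencing genes tested, of 14 listed, none passed in limma, with a median difference of 0.20 that turned to -0.62 on the spiked-in scale. At an unadjusted p under 0.05, 2 were higher and 0 lower, beside 677 of all 3302 transcripts in either direction. Limma with array weights and limma with trend and robust settings each called 1 of the 9 higher. Normexp with quantile normalization called DCL1, DCL4 and NRPD1B higher and DCL2 lower, and the spiked-in scale called 0 higher and 3 lower. RDR2, which copies RNA for small interfering RNAs, was at 1.51 and 1.52 on the 0 h arrays and at 2.06 and 2.21 on the 20 h arrays, a difference of 0.62 ± 0.17 (SE, limma adjusted p = 0.0978). DCL1, the enzyme that cuts microRNA precursors, differed by 0.20 ± 0.17 (SE, limma adjusted p = 0.564), at 3.52 and 3.65 against 3.80 and 3.78. DCL2, DCL3 and DCL4, which cut other small RNAs, had differences of -0.17, 0.02 and 0.37. NRPD1A and NRPD1B, the largest subunits of plant-specific RNA polymerases, stood at 0.47 and 0.80, and the probes of NRPD1B ranged from -2.42 to 0.80. AGO2, a small RNA carrier, stood at -0.44 and STRS1, a helicase, at -0.79 ± 0.78, with probes from -4.27 to -0.79.

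Of the 11 characterised non-coding RNAs listed, 4 were on the array, and none passed in limma. Their median difference was -0.40, or 0.016 under normexp with quantile normalization. At an unadjusted p under 0.05, 1 was higher and 2 were lower, beside 677 of all 3302 transcripts in either direction. Of the 4, limma with array weights called 1 higher and 2 lower, and limma with trend and robust settings 1 higher. Normexp with quantile normalization called 1 higher, and the spiked-in scale 3 lower. FLORE, the clock-controlled antisense RNA of CDF5, was at 2.84 and 2.86 on the 0 h arrays and at 3.36 and 3.46 on the 20 h arrays, a difference of 0.56 ± 0.17 (SE, limma adjusted p = 0.121). Its mean peaked at 20 h, at 3.41, with its trough of -1.40 at 8 h, and the difference turned to -0.26 on the spiked-in scale. ELENA1, an RNA of the immune response, had -1.22 ± 0.42, TAS4, a source of phased small RNAs, had -0.66 ± 0.20, and ASCO, which binds splicing factors, had -0.14 ± 0.17.

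MicroRNA precursors are transcripts with a stem-loop from which DCL1 releases the mature microRNA, and their level is not that of the mature form. Of 121 tested, 18 (14.9%) were lower at 20 h and none was higher (limma), beside 3.09% lower and 1.03% higher among all transcripts. At an unadjusted p under 0.05, 6 of the 121 were higher and 34 lower, beside 677 of all 3302 transcripts in either direction. Limma with array weights called 1 higher and 26 lower, and limma with trend and robust settings 1 and 22. The count of lower precursors depended on the scale, from 3 with the percentile of all probes to 72 with spiked-in controls, and normexp with quantile normalization called 2 higher and 12 lower. The median difference of the 121 was -0.24, close to the -0.19 of all transcripts. For 51 of the 121 precursors (42.1%) the mean at 20 h was the lowest of the 6 time points, against 25.2% of all transcripts.

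Dim transcripts leaned to lower values at 20 h. The median level was -3.72 for the precursors and -4.86 for all transcripts. With all transcripts divided into 3 equal parts by mean level, the median difference was -0.46 in the dimmest part, -0.22 in the middle and 0.02 in the brightest. For the precursors it was -0.82 among 25 in the dimmest part, -0.23 among 31 in the middle and -0.20 among 65 in the brightest. Of these 65, 12 (18.5%) were lower, beside 5.0% of all transcripts in that part. Of all transcripts, 493 were detected on both 0 h arrays and neither 20 h array, and 14 were detected on both 20 h arrays and neither 0 h array. Of the 121 precursors, 15 were detected on both 0 h arrays and neither 20 h array. MIR399c, MIR399d, MIR160a, MIR160b, MIR827 and MIR839 passed though neither 20 h array detected them. The part of level and of detection in the falls was not tested.

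In the phosphate group the falls ran into the background at 20 h. The microRNAs of MIR399 and MIR827 target PHO2 and NLA, genes of the ubiquitin pathway that limit phosphate uptake. Of 7 tested, 3 were lower, none was higher and 4 did not pass, with a median difference of -1.57. Among all 121 precursors 14.9% were lower and none was higher. At an unadjusted p under 0.05, 5 of the 7 were lower and 0 higher, beside 677 of all 3302 transcripts in either direction. MIR399d was at -3.48 and -3.67 on the 0 h arrays and at -7.04 and -6.27 on the 20 h arrays, the latter not well above background. It was at least 5.06-fold lower at 20 h (limma adjusted p = 0.00219). MIR399c, at -5.18 and -4.53 against -7.99 and -8.01, was at least 2.08-fold lower (limma adjusted p = 0.0230), and MIR827, at -5.95 and -5.79 against -7.46 and -7.42, at least 1.03-fold (limma adjusted p = 0.0462). These bounds are smaller than the fitted falls of 8.46-fold, 8.87-fold and 2.97-fold since each is set against the lowest signal that counts as detected. MIR399f, set against the lowest detected signal, was 2.24-fold lower but missed the threshold (limma adjusted p = 0.0574). MIR399e had a difference of -1.25, and MIR399a had 0.61. Under normexp with quantile normalization the median of the 7 was -0.20 and 1 was lower.

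MIR163, a young precursor whose microRNA targets methyltransferase genes, was bright at both times. It was at 2.19 and 2.04 on the 0 h arrays and at -0.66 and -1.04 on the 20 h arrays. The 0 h arrays were clearly higher, 7.81-fold (difference -2.97 ± 0.26, SE, n = 2 and 2 arrays, limma adjusted p = 0.00147), and its 3 probes ran from -3.04 to -2.93. MIR163 kept a mean of 2.12 to 2.68 from 0 h to 12 h, and stood at 0.93 at 16 h and -0.85 at 20 h. MIR161, of the same group of young families, was at -2.94 and -2.89 against -3.84 and -4.36, a difference of -1.19 ± 0.21 (SE, limma adjusted p = 0.0230). The other tested member of the group did not pass, at -0.60.

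The precursors MIR850 and MIR863 overlap the same non-coding gene, AT4G13495, in the gene table. MIR850 was at 1.35 and 1.42 on the 0 h arrays and at -0.19 and -0.07 on the 20 h arrays, and MIR863 stood at -0.93 and -0.99 against -2.58 and -2.42. In both the 0 h arrays were higher with no overlap, by 2.87-fold and 2.91-fold, each with a limma adjusted p of 0.00351. The transcripts AT4G13495.1 and AT4G13495.2 of that gene, named here after their values were seen, also passed, at -0.88 ± 0.16 and -0.90 ± 0.20. All 4 share that locus and are not independent. They had their highest mean at 12 h and their lowest at 20 h. The probes of MIR863 ranged from -2.23 to 1.45 and did not all follow.

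Conserved families held further falls, beside 14.9% of all 121 precursors that were lower. MIR160a and MIR160b, whose microRNA targets auxin response factors, were not well above background at 20 h. MIR160a was at least 2.52-fold lower than at 0 h (limma adjusted p = 0.0417). MIR160b was 2.34-fold lower (limma adjusted p = 0.0375), which is the fitted value and no lower bound. Under normexp with quantile normalization the differences of MIR160a and MIR160b were -0.25 and -0.07 (limma adjusted p = 0.0502 and 0.720). The other 6 tested members of MIR160, MIR164 and MIR167 did not pass, for a median of -0.34 over the 8. MIR159a was at -1.43 and -1.62 on the 0 h arrays and -2.75 and -2.77 on the 20 h arrays, and MIR159b at -0.13 and -0.27 against -1.25 and -1.33. These precursors of a microRNA that targets GAMYB-like factors were 2.35-fold and 2.13-fold lower at 20 h (limma adjusted p = 0.0110 and 0.0127), with 0 h arrays above 20 h arrays throughout. Over the 6 members of MIR159 and MIR319 the median was -0.83, and 4 did not pass. Of 12 precursors of MIR156 and MIR157, which time the change to adult growth through SPL factors, only MIR157c passed, at -1.19 ± 0.21 (SE, limma adjusted p = 0.0227). The rest of that group ran from -1.33 to 0.64, and the median of the 12 was -0.47. Of 13 tested MIR169 precursors, which target NF-YA factors, only MIR169a passed, at -1.08 ± 0.17 (SE, limma adjusted p = 0.0141), and the median of -0.08 turned to 0.10 with the percentile of all probes.

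Of the 43 tested precursors numbered MIR400 and above, mostly young families, 7 were lower, beside 18 (14.9%) of all 121 precursors. Beside MIR850 and MIR863 these were MIR775, MIR779, MIR824, MIR833 and MIR839. MIR775 was at -2.87 and -3.01 on the 0 h arrays and at -4.30 and -4.68 on the 20 h arrays, 2.92-fold lower (limma adjusted p = 0.00648). MIR824, whose microRNA targets AGL16, a regulator of stomata and flowering, was 2.38-fold lower (limma adjusted p = 0.0184). MIR839 was at least 2.31-fold lower, and MIR833 and MIR779 had differences of -1.22 and -1.02. The whole group ran from -1.80 to 1.61 with a median of -0.16, which turned to 0.02 with the percentile of all probes.

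No precursor passed among MIR165 and MIR166 (8 tested), MIR170 to MIR172 (5), the copper group MIR397, MIR398, MIR408 and MIR857 (5), MIR162, MIR168 and MIR403 (5), MIR393 (2), MIR394 (2) and MIR396 (2), all in limma. At an unadjusted p under 0.05, 2 of MIR170 to MIR172, 1 of the copper group and 1 of MIR394 were lower. At that p, 1 of the silencing group MIR162, MIR168 and MIR403 was higher. Over all 3302 transcripts, 677 had such a p in either direction. Limma with array weights called 1 lower in each of MIR170 to MIR172, the copper group and MIR394. Limma with trend and robust settings called 1 lower in MIR170 to MIR172 and in the copper group. The medians of these groups ran from -1.30 for MIR394 to 0.12 for MIR396, and on the spiked-in scale all of them lay below 0. No precursor of MIR390 or MIR395 was bright enough to be tested.

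**Figure D4:**
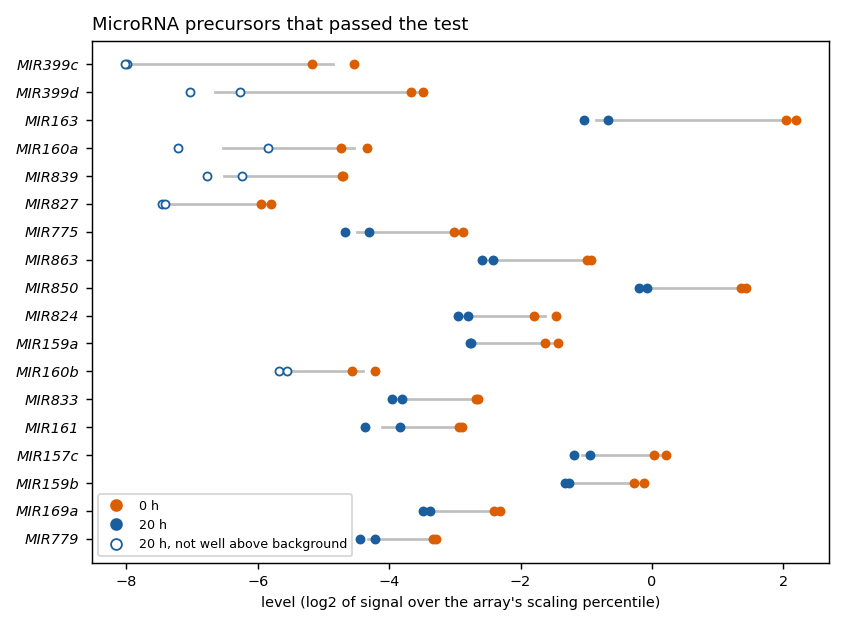
Level (log2, horizontal axis) of the 18 microRNA precursors that passed, on the 2 arrays of 0 h and the 2 of 20 h, with a grey line between the means. Open points are precursors with no 20 h array well above background. In each precursor both 20 h arrays lie to the left of both 0 h arrays, and among those detected at both times the differences run from -2.97 for MIR163 to -1.02 for MIR779.

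Of the 462 locus-named transcripts, 13 were higher (2.81%) and 19 lower (4.11%), beside 1.03% and 3.09% of all. Their median difference was 0.02, which turned to -0.80 on the spiked-in scale and to -0.022 with the mean of a transcript's probes. Of the 91 that the gene table lists as protein-coding, 5 were higher (5.49%) and 8 lower (8.79%). The 5 were PRR7, PIF4, PRR3, PIF3 and CHE, and the 8 were LHY, LTI78, KIN1, CCA1, HY5 and JAZ5, ADC2 and AT1G65481, of which the last 3 are named after their values were seen. JAZ5, a repressor of jasmonate signalling, was at -0.23 and 0.03 on the 0 h arrays and at -1.54 and -1.49 on the 20 h arrays, a difference of -1.41 ± 0.18 (SE, limma adjusted p = 0.00518). ADC2, an arginine decarboxylase of polyamine synthesis, was at 7.12 and 7.26 against 6.09 and 5.94, a difference of -1.17 ± 0.20 (SE, limma adjusted p = 0.0212). In both the 0 h arrays were the higher ones.

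Of the 215 locus-named transcripts listed as lncRNA, 6 were higher (2.79%) and 4 lower (1.86%), with a median difference of 0.17. Of the 141 listed as ncRNA, 2 were higher (1.42%) and 7 lower (4.96%). The shares were 2.81% and 4.11% of all locus-named transcripts, and 2.55% and 5.0% of the brightest of 3 equal parts of all transcripts. These shares were not tested against each other. The lncRNAs were bright, with a median level of -0.37. For 28.8% of them 20 h was the highest of the 6 time points, beside 21.4% of all locus-named transcripts, 19.5% of the brightest of 3 equal parts of all transcripts and 10.6% of all transcripts, a difference that was not tested.

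AT5G53048, an lncRNA that overlaps the protein-coding gene AT5G53050, had the largest fall among locus-named transcripts. It was at 1.25 and 1.17 on the 0 h arrays and at -2.61 and -2.98 on the 20 h arrays. The 0 h arrays were 16.0-fold higher (difference -4.00 ± 0.19, SE, n = 2 and 2 arrays, limma adjusted p = 4.2e-05), and its 3 probes ran from -4.00 to -3.82. Its mean was highest at 12 h, 2.46, still 1.59 at 16 h, and lowest at 20 h.

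AT4G03038, an ncRNA that overlaps MIR826a, MIR826b and AT4G03040, was at -1.28 and -1.18 against -4.16 and -4.27, a difference of -2.99 ± 0.18 (SE, limma adjusted p = 0.000143). One of its probes went the other way, with a range from -2.99 to 0.20. AT4G17098, an lncRNA over AT4G17100, was at 0.43 and 0.45 against -1.68 and -2.01, a difference of -2.28 ± 0.19 (SE, limma adjusted p = 0.000943), with its highest mean at 4 h. AT3G57157 was at -0.08 and -0.10 against -2.04 and -1.83, a difference of -1.84 ± 0.18 (SE, limma adjusted p = 0.00177). In all of these the 0 h arrays lay above the 20 h arrays.

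The non-coding rises were smaller. AT3G01202, an lncRNA over RP2, was at -3.71 and -3.63 on the 0 h arrays and -2.21 and -2.73 on the 20 h arrays, a difference of 1.20 ± 0.22 (SE, limma adjusted p = 0.0255). Its other probes gave the opposite sign, down to -0.59, and all slide 2 arrays lay above all slide 1 arrays. AT4G38545.2, over PLC1 and AT4G38540, was at 0.67 and 0.67 against 1.71 and 1.97, and AT5G67488, over AT5G67490, at -0.79 and -0.61 against 0.36 and 0.44. Their differences were 1.17 ± 0.24 and 1.1 ± 0.22. AT3G60972, AT3G13061 (over ECT5) and AT2G32795 followed at 1.08, 1.02 and 0.97. That of AT2G32795 turned to -0.39 under normexp with quantile normalization. For AT4G38545.2, AT5G67488, AT3G60972 and AT2G32795 the mean at 20 h was the highest of the 6 time points. Where these loci overlap a protein-coding gene, the labels do not say how far a probe is specific to one strand or one gene.

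Passing did not follow the size of a difference alone. Among locus-named transcripts and precursors, the 3 smallest differences that passed were AT1G58590.1 at -0.78, AT5G59732 at -0.82 and AT3G29644.1 at 0.84. Their adjusted p was 0.0458, 0.0489 and 0.0374 in limma. The 3 largest among them that did not pass were MIR399f at -2.46, ABI3 at -2.12 and AT1G27008 at -1.95, with standard errors from 0.54 to 0.77.

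Among the 2719 TU-named transcripts, which have no gene name in the table used, 21 were higher (from 0.82 to 6.96) and 65 lower (from -5.68 to -0.84). AT5TU002520 was at -7.13 and -8.57 on the 0 h arrays, not well above background, and at -0.0031 and -1.78 on the 20 h arrays, at least 46.5-fold higher (limma adjusted p = 0.00385). AT5TU070870, at -6.02 and -6.83 against -2.66 and -3.04, was at least 10.6-fold higher (limma adjusted p = 0.00500). In each, all slide 2 arrays were above all slide 1 arrays, and a second probe of the transcript had the opposite sign. AT1TU101330 was at 0.28 and 0.06 against -5.26 and -5.78, the latter not well above background. Its fitted fall was 51.4-fold (limma adjusted p = 0.00177), and another of its probes was at 0.10. AT2TU063000, at -0.57 and -0.41 against -4.51 and -4.44, was 15.9-fold lower (limma adjusted p = 4.2e-05), and its 3 probes ran from -3.99 to -3.75. All slide 2 arrays of AT2TU063000 lay below all its slide 1 arrays.

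Other probes of a transcript are no replicates, but they show where a value rests on 1 probe. Of the 136 transcripts that passed, 132 had other probes, and 185 of these 256 probes (72.3%) had the sign of the probe used, against 56.1% over all tested. The share was 93.8% for locus-named transcripts, 95.2% for precursors and 61.4% for TU-named transcripts. Among other probes well above background on all 4 arrays, 98.1% had the same sign.

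The 6 steps between neighbouring points differed in how many transcripts passed. There were 28 (0.848%) from 0 h to 4 h, 42 (1.27%) from 4 h to 8 h, 115 (3.48%) from 8 h to 12 h, 313 (9.48%) from 12 h to 16 h and 280 (8.48%) from 16 h to 20 h, beside 136 (4.12%) from 20 h to 0 h. The differences between these counts were not tested, and steps that meet at a time point share its arrays. Both steps with the highest counts rest on the 16 h arrays, whose replicates correlated least (r of 0.909). Only the steps from 4 h to 8 h and from 20 h to 0 h cross between slides. For 28 of the 136 transcripts (20.6%), 10 higher and 18 lower at 20 h, all 8 arrays of slide 2 lay on one side of all 4 of slide 1, beside 4.82% of all 3302. All 136 already had the 20 h arrays apart from the 0 h arrays, beside 59.4% of all tested. Selection thus raises the first share, and the part of slide was not tested. The locus-named ones among the 28 were PRR7, PIF4, CHE, HY5, AT3G01202 and AT2G35637, the last named after its values were seen. For LHY, CCA1, PRR3, LTI78, PIF3, MIR163 and AT5G53048 the arrays of the slides overlapped.

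Spiked-in control RNAs, read by the E1A probes of the array, gave a scale that does not rest on leaf transcripts. Of 10 controls, 8 were bright enough to use, and all 8 read higher at 20 h than at 0 h on the scale of this report, by 0.50 to 1.1. Scaled by them, the median difference of all transcripts was -1.01. PRR7 and PIF4 were still higher at 20 h on that scale, at 1.70 and 1.54, and LHY and LTI78 lower, at -4.80 and -4.64. The part of the total labelled signal in the excess of lower transcripts was not tested.

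**Figure D5:**
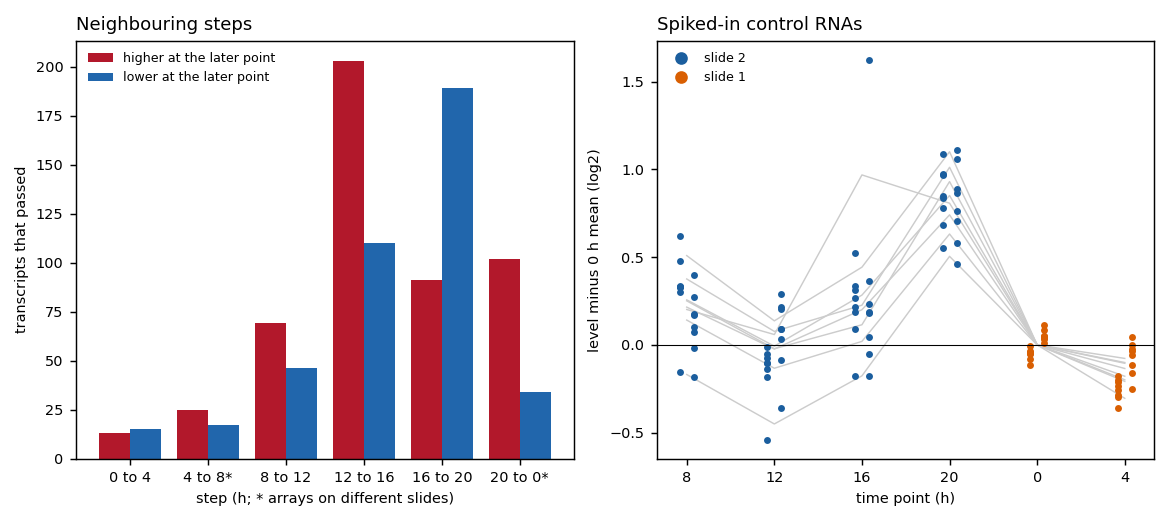
Left, number of transcripts that passed (vertical axis) in each step between neighbouring time points, higher or lower at the later point, where an asterisk marks steps between slides. Right, level of the 8 spiked-in controls minus each control's 0 h mean (log2) on single arrays, coloured by slide; those of 20 h lie 0.50 to 1.1 above 0 on average, higher than at 0, 4, 8 and 12 h for each control.

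The call of a transcript often rested on single arrays. LHY, LTI78, PRR7, PIF4, MIR163, MIR399d, MIR850, MIR863, AT5G53048, AT4G03038, AT4G17098 and AT3G57157 passed in all 12 fits that each left out 1 array. KIN1 and MIR775 passed in 11, CCA1 in 10, PRR3 and MIR839 in 9, MIR399c in 8, HY5 in 6, CHE and PIF3 in 4, MIR160a in 3 and MIR827 and MIR779 in 2. With the 4 arrays of 0 h and 20 h alone, 6 transcripts passed, among them LHY, LTI78 and AT5G53048 with an adjusted p of 0.0398 each.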

How the data were processed

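Leaf RNA (0.5 µg a sample, per the labels) was labelled with a single dye and hybridised to 12 arrays, 2 for each of 6 time points. The deposited scanner files hold spot intensities. Per the file headers, the program was Agilent Feature Extraction 10.5.1.1, which subtracted background within an array, and the headers record no scaling between arrays. The deposited series table holds log2 values made by the authors in a way that the sources used here do not state. Its column medians all lie near 1.37, its slope against the log2 of the scanner values was 0.956 to 1.02 (1.28 for the second 16 h array), and the exact method of its centring is unknown, so it served only as an alternative.

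Control spots and spots marked as outliers (0 to 9 an array) were left out, and no probe was saturated. The level is the log2 of the processed intensity minus the array's 75th percentile over probes detected on every array. The brightest probe by mean signal stood for a transcript. Of 5154 names, 3302 were tested because that probe was detected on both replicates of some time point. The test was limma's (version 3.58.1, R version 4.3.3; lmFit and eBayes), with 1 mean per time point, all 12 arrays, 6 residual degrees of freedom, Benjamini-Hochberg adjustment over all tested transcripts and a threshold of 0.05. The fit was tested on simulated data. Each error after ± is the standard error (SE) of a fitted difference. "At least" folds, and those set against the lowest detected signal, compare the bright group's mean with the dim group's. A dim signal under the weakest detected probe of its array was raised to that probe's. These folds leave out the spread between arrays and are not confidence limits. The number of arrays limits the precision.

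Of 405 loci named on the array, 400 were found in the gene table (assembly TAIR10.1), as were 164 of 173 precursor names. The 4499 TU codes have no name there, and at most 2 are printed in each direction. The array headers name an older build, so no coordinates are given. The text names the 10 largest rises and falls among locus-named transcripts and precursors that passed with groups apart, 2 TU codes each way, all tested members of 6 gene lists and the precursors that passed. It also names, among locus-named transcripts and precursors, the 3 smallest differences that passed and the 3 largest that did not. The members and lists were chosen with earlier results of these data known. Alternatives changed the scale, background correction, probe rule, filter, spread estimate, replicate block and arrays. The normexp alternative used spot medians, since spot means are not in the files used, and a slide term could not be fitted beside the time points.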

Additional observations from a re-analysis of the deposited data

How the results depend on the processing

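The count of 136 of 3302 transcripts stayed within 1.5 times on scales set by the median of detected probes (112) or by probes detected on the 4 arrays (122). With detection required on all 4 arrays it was 193 of only 1815 tested (84 higher, 109 lower), of which 86 were among the 136. With detection on both arrays of either time point it was 192 of 2717, of which 133 were among the 136. Under these filters the share that passed thus rose more than the count. The count came to 29 with the percentile over all probes, 69 with quantile normalization, 66 with the series table, 46 with the mean of a transcript's probes and 57 without a filter. It rose to 273 with normexp and quantile normalization (151 higher, 122 lower), 1144 with spiked-in controls (11 and 1133), 347 with array weights and 252 with trend and robust settings. In all of these but normexp, lower outnumbered higher. The 4 arrays of 0 h and 20 h alone gave 6, with fewer degrees of freedom for the spread. Leaving out single arrays gave 29 to 255: 29 or 37 when a 0 h array was left out (the first or the second), 64 or 55 when a 20 h array was, 72 and 76 without either 4 h or either 8 h array, 131 without either 12 h array, and 255 without either or both of the 16 h arrays. Where an arm kept 1 array, that array was assumed to vary like the other groups. For other moves the cause was not tested.

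The replicate block gave 114 (28 higher, 86 lower). The labels do not say whether replicate numbers pair the samples. Deviations of same-numbered arrays correlated between -0.10 and 0.19 over the pairs of time points, and at 0.05 between 0 h and 20 h. Such low values cannot decide whether a pairing exists. A term or block for slide was not run, because slide is fixed by time point.

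Of 45 named transcripts that passed, 16 passed whichever array was left out and 11 on all 7 other scales, and AT2G32795 alone changed direction (-0.39, normexp and quantile). Named transcripts that did not pass and changed direction were, with spiked-in controls, PRR9 (-0.21), TOC1 (-0.32), PHYA (-0.11), PIF5 (-0.77), FHY1 (-0.44), ABI1 (-0.37), ABI5 (-0.48), AFP1 (-0.71), DCL1 (-0.62), DCL3 (-0.80), DCL4 (-0.45), RDR2 (-0.21), NRPD1A (-0.35), NRPD1B (-0.024) and FLORE (-0.26). With the percentile over all probes these were PIF1 (0.12), COR47 (0.0012), ABI2 (0.091), DCL2 (0.013) and ASCO (0.038), and with normexp and quantile FHY1 (-0.23), COR15B (0.077), ABI2 (0.16), DCL3 (-0.0062) and ASCO (0.16). With the mean of probes they were ABI2 (0.053), AFP1 (-0.035), NRPD1B (-0.55) and ASCO (0.17), with the median scale PIF1 (0.019), and DCL3 with quantile (-0.065) and the series table (-0.073). Leaving out 1 array gave PIF1 -0.13 to 0.0008, PIF5 -0.13 to 0.23, ABI2 -0.29 to 0.11, AFP1 -0.0079 to 0.23 and DCL3 -0.062 to 0.097. Signal over background limits dim transcripts, for which the fold is uncertain and at most a rough lower bound can be given.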
